A study of Zea mays with 18 samples.

Results

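Anthers of maize plants with an active ZmCCT10 transgene, ZmCCT(+), were compared with anthers of non-transgenic plants, ZmCCT(-), at the earliest of 3 sampled stages, S3-4. All S3-4 libraries were taken by their stage and genotype labels, which gave 3 ZmCCT(+) and 3 ZmCCT(-) libraries, 6 of the 18 in the series. The remaining 12 are 3 libraries of each genotype at S5-6 and at S7. The sources used here do not give the promoter that drives the transgene, the number of transgenic lines or any pooling of plants. Nor do they state that the libraries within a group are from different plants. The p-values therefore set the difference between genotypes against the spread among these libraries, which may be technical variation.

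ZmCCT10 encodes a protein with a CCT domain and is known as a repressor of flowering in maize under long days. In a young anther the cell layers of the wall, among them the tapetum that feeds the pollen mother cells, are laid down before meiosis. Small RNAs are a feature of this organ in grasses: miR2118 and miR2275 start the production of phased small RNAs, the first mainly before meiosis and the second mainly during it.

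The 6 libraries held 17648209 to 19566127 counts, and 28018 to 28592 genes had at least 1 count. Of 45578 listed genes, 24694 passed the filter on low counts, with 99.9% of the S3-4 counts. Log2 CPM, the count per 1e6 counts after TMM scaling between libraries, correlated across genes at Pearson's r of at least 0.991 between libraries of 1 genotype. Between genotypes r lay between 0.839 and 0.843, and genes are not independent replicates. The files and the gene table used here pair no Zm00001d identifier with a name, so ZmCCT10, markers that would check the tissue label and genes of known pathways were not analysed here. Genes are given by identifier, by position, by behaviour or, for microRNA precursors, by name. Positions are copied from the deposited tables, and the sources used here do not name their genome build.

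The genotypes differed by 2-fold or more in 40.2% of the tested genes. In edgeR's quasi-likelihood test, at a Benjamini-Hochberg adjusted p below 0.05, 4767 genes (19.3%) had a fitted level of 2-fold or more above ZmCCT(-) in ZmCCT(+), and 5156 (20.9%) had one of 2-fold or more below it. With no fold minimum 9973 genes (40.4%) passed as higher and 10095 (40.9%) as lower, 81.3% of the genes tested. The common coefficient of variation that edgeR fitted between replicates, with counting noise taken out, was 3.20%. With that noise included, the median coefficient of variation of CPM was 7.13% in ZmCCT(+) and 6.04% in ZmCCT(-). In these bulk samples, a change in the share of a cell type and a change in RNA per cell cannot be told apart. The genes that were lower outnumbered those that were higher among moderate changes, with 3041 lower and 2574 higher between 2-fold and 4-fold. Among the strongest changes the order was the other way. Of the genes with a fitted difference of 32-fold or more, 344 were higher and 93 lower. Genes that passed the low-count filter through S3-4 counts alone are included, so this order is given as a description. Of the tested genes below 1 CPM at the later stages, 1290 were at least 2-fold higher and 409 lower. A fitted fold of a gene without counts in 1 genotype depends on the prior count of the fit and is used here for sorting into classes.

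**Figure D1:**
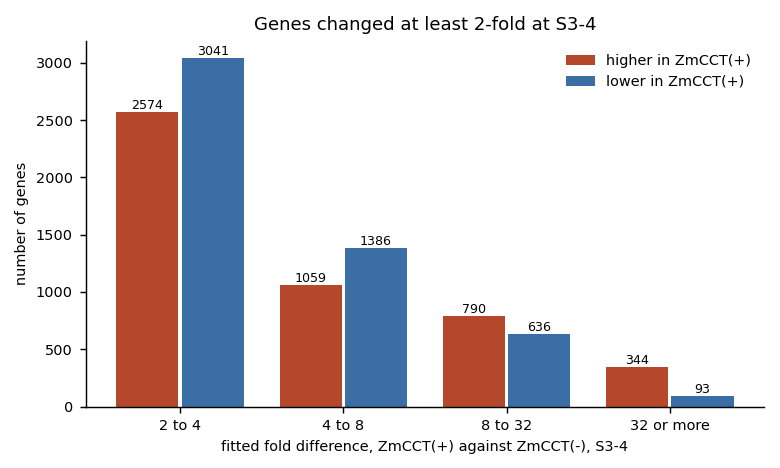
Number of genes (vertical axis) with an edgeR adjusted p below 0.05 in classes of fitted fold difference between S3-4 ZmCCT(+) and S3-4 ZmCCT(-) (horizontal axis). Lower genes (right bars) outnumber higher genes (left bars) up to 8-fold, while from 32-fold on 344 genes are higher and 93 lower. Genes that passed the low-count filter through S3-4 counts alone are included.

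The changed genes made up a large part of the RNA. The 4767 higher genes took 32.4%, 33.2% and 32.8% of the counts of the ZmCCT(+) libraries, against 9.89%, 9.82% and 9.77% in the ZmCCT(-) libraries. The 5156 lower genes took 5.89%, 5.93% and 5.93% in ZmCCT(+), against 23.3%, 23.4% and 23.3% in ZmCCT(-). The S3-4 libraries chose these genes, so the gap between genotypes is given as a description. In the 12 libraries of the later stages, which took no part in that choice, the higher genes held 8.998% to 12.7% of the counts and the lower genes 22.5% to 27.7%. Those values lie near the S3-4 ZmCCT(-) libraries in both gene sets, and the S3-4 ZmCCT(+) libraries stand apart. Among the later groups S7 ZmCCT(+) lay nearest to S3-4 ZmCCT(+), at 12.5% to 12.7% and at 22.5%.

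**Figure D2:**
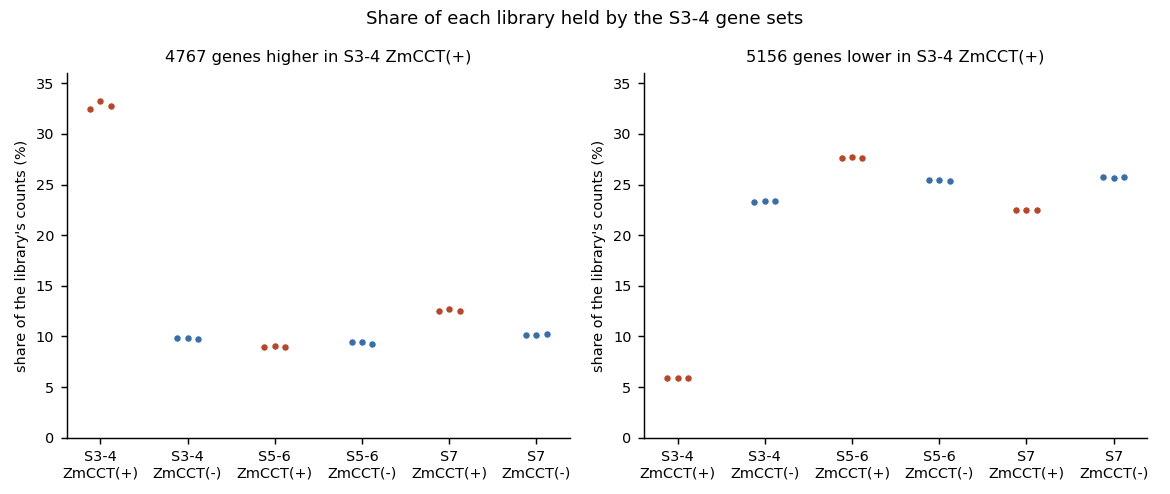
Percent of each library's counts (vertical axes) held by the genes at least 2-fold higher (left) or lower (right) in S3-4 ZmCCT(+), 1 point per library, in 6 groups of 3. The S3-4 ZmCCT(+) libraries lie at 32.4% to 33.2% and at 5.89% to 5.93%, apart from the libraries of the 5 other groups. Of those 5, S7 ZmCCT(+) lies nearest to S3-4 ZmCCT(+), at 12.5% to 12.7% and at 22.5%.

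The same pattern held gene by gene. The median level of the higher genes was 15.6 CPM in S3-4 ZmCCT(+) and 3.17 CPM in S3-4 ZmCCT(-), and it was between 3.45 and 4.93 CPM in the 4 later groups. The median of the lower genes was 4.44 CPM in S3-4 ZmCCT(+) and 17.0 CPM in S3-4 ZmCCT(-), and between 15.1 and 18.8 CPM later. S3-4 ZmCCT(+) was the highest of the 6 groups for 4218 of the 4767 higher genes (88.5%) and the lowest for 4707 of the 5156 lower genes (91.3%). Genes chosen for their S3-4 difference tend to be extreme there. Over all 24694 tested genes it was the highest for 9082 and the lowest for 9112, together 73.7%. For 3017 and 3849 of these genes it lay at least 2-fold beyond every other group. Among all tested genes it was at least 2-fold above every other group for 3021 and at least 2-fold below for 3980. The corresponding counts in the other 5 groups ran from 13 to 202 above and from 142 to 778 below.

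Most of the S3-4 difference was not shared with the later stages. The genotype effect at S3-4 minus the mean of those at S5-6 and S7, which rest on other libraries, was called for 19079 of the 24694 tested genes (77.3%) in edgeR's test of that contrast. It was called with the sign of the S3-4 effect for 4385 of the higher genes (92.0%) and 4777 of the lower genes (92.6%), and with the opposite sign for 2 and 83. The S3-4 effect that chose these genes is part of the contrast. Their agreement in sign is thus largely set by the choice and is given as a description. Of the higher genes, 526 were at least 2-fold higher at S5-6 and 551 at least 2-fold lower there. At S7 606 were higher and 236 lower. Of the lower genes, 321 were at least 2-fold lower and 319 at least 2-fold higher at S5-6, and at S7 543 were lower and 43 higher. Over all tested genes, 1348 (5.46%) were at least 2-fold higher and 1720 (6.97%) lower at S5-6, and 792 (3.21%) and 1415 (5.73%) at S7. At S5-6 the S3-4 sets thus held near-equal numbers of genes in both directions, while at S7 more genes had the S3-4 direction than the opposite one.

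The balance of gains and losses differed with the level of a gene at the later stages. Tested genes were sorted by their mean in the 12 S5-6 and S7 libraries. The 2924 genes below 1 CPM there could pass the low-count filter through their S3-4 counts and are left out of this description. Of 6837 genes between 1 and 10 CPM, 26.2% were at least 2-fold higher in S3-4 ZmCCT(+) and 21.95% lower. Of 12742 genes between 10 and 100 CPM, 11.8% were higher and 20.8% lower, and of 2191 genes at 100 CPM or more, 8.58% were higher and 27.2% lower. Among genes abundant in later anthers, losses thus outnumbered gains. In medians the later levels lay near those of S3-4 ZmCCT(-), so this sorting is not independent of the ZmCCT(-) level in the fold. The trend is therefore given as a description.

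Gene length was compared within these classes, since tested genes below 1 CPM were short, with a median span of 1656 bases. Spans run from the first to the last listed base, introns included. Over all levels, genes below 1 CPM included, the median was 2365 bases in the higher genes, 3260.5 bases in the lower genes and 3501 bases in all tested genes. This order did not hold at every level. Between 1 and 10 CPM the median was 2017 bases in the higher, 2271 in the lower and 2233 in all tested genes. Between 10 and 100 CPM it was 3732, 4175 and 4442.5 bases. At 100 CPM or more the higher genes had a longer median than the lower genes, 4533.5 against 3111 bases, with 5009 bases in all tested genes.

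The most abundant transcripts of the genotypes overlapped only in part. TPM, which the authors scaled by gene length and library, allows levels of different genes to be compared. A gene on chromosome 1 (208252891 to 208254322, minus strand) had 11848, 13054 and 12351 TPM in ZmCCT(+), against 126, 123 and 121 TPM in ZmCCT(-). It ranked first in ZmCCT(+) and place 1450 in ZmCCT(-), with a log2 fold change in counts of 6.78 ± 0.06 SE (edgeR adjusted p = 1.56e-19). At S5-6 it averaged 175 TPM in ZmCCT(+) and 16.6 TPM in ZmCCT(-), and at S7 708 and 14.1 TPM, so ZmCCT(+) was above ZmCCT(-) at all 3 stages. The gene with the highest TPM in ZmCCT(-), also on chromosome 1 (211247689 to 211248141, plus strand), had 78.0, 76.4 and 74.6 TPM in ZmCCT(+), against 3328, 3376 and 3406 TPM in ZmCCT(-). It ranked at place 2746 in ZmCCT(+), and its log2 fold change in counts was -5.36 ± 0.03 SE (edgeR adjusted p = 1.20e-102). At S5-6 its level was close to equal, at 2964 TPM in ZmCCT(+) and 2999 TPM in ZmCCT(-).

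Other leading transcripts of ZmCCT(+) moved the same way. A short gene on chromosome 8 (138416663 to 138416884) ranked second with 4553, 5055 and 5025 TPM, against 467, 498 and 515 TPM in ZmCCT(-). Genes on chromosome 7 (19750770 to 19754324) and chromosome 5 (162603198 to 162606546) followed at ranks 4 and 5, with means of 4095 and 2820 TPM in ZmCCT(+) and 514 and 425 TPM in ZmCCT(-). The gene at rank 3, on chromosome 5 (14451040 to 14451980), was abundant in both genotypes, at 4684 ± 334 TPM in ZmCCT(+) and 3313 ± 140 TPM in ZmCCT(-) (SD, n = 3 each). The genes at ranks 3, 4 and 5 in ZmCCT(-) were at ranks 14, 83 and 24 in ZmCCT(+). Those at ranks 4 and 5 in ZmCCT(-) each overlap another listed gene. The rank 5 gene had only 3 counts in each genotype and was not tested, so its TPM rank is not backed by counts. The genotypes shared 1 of their 10 most abundant genes, 38 of 100 and 525 of 1000. The 10 most abundant genes together took 4.01% to 4.31% of the TPM in ZmCCT(+) and 2.87% to 2.90% in ZmCCT(-).

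**Figure D3:**
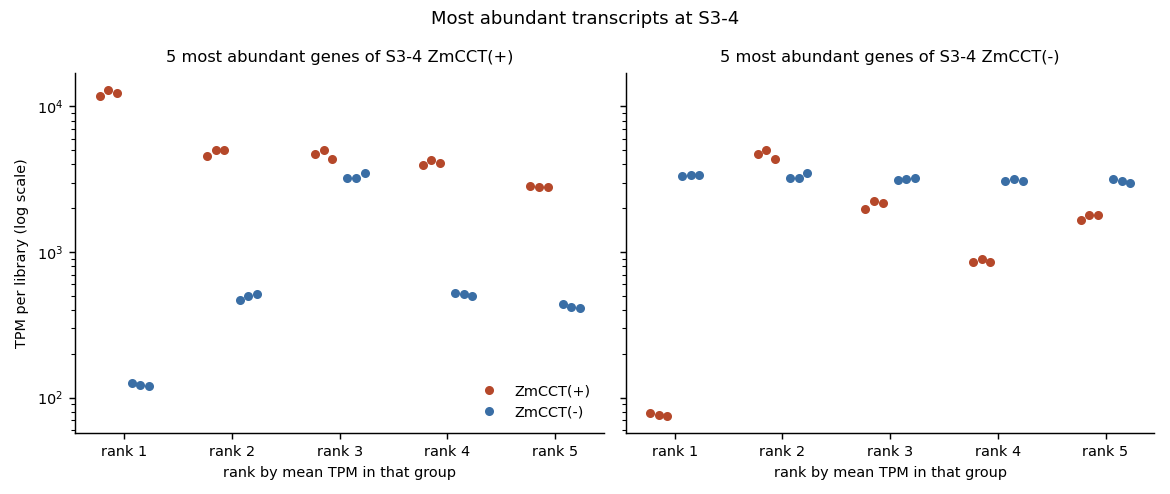
TPM per library on a log axis for the 5 genes with the highest mean TPM in S3-4 ZmCCT(+) (left) and in S3-4 ZmCCT(-) (right), 3 points per genotype. The leading gene of ZmCCT(+) is at 11848 to 13054 TPM there and at 121 to 126 TPM in ZmCCT(-), and the leading gene of ZmCCT(-) is at 74.6 to 78.0 TPM in ZmCCT(+). The gene at rank 5 in ZmCCT(-) had only 3 counts in each genotype.

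The widest differences among genes with at least 20 CPM in 1 genotype were between a clear signal and nearly none. Zm00001d009054 (chromosome 8, 33466268 to 33469138) had 1160, 1082 and 1304 counts in ZmCCT(+) and 0, 0 and 0 in ZmCCT(-). Against a floor of 3 counts over the ZmCCT(-) group this was at least 1330-fold higher (edgeR adjusted p = 3.27e-61). Zm00001d047323 (chromosome 9, 126607955 to 126611605) had 911, 882 and 972 counts in ZmCCT(+) and none in ZmCCT(-), at least 1039-fold higher (edgeR adjusted p = 1.70e-59). Both genes had 0 or 1 count over the S5-6 ZmCCT(+) libraries and returned at S7, with 60.8 CPM each in ZmCCT(+) and no count in ZmCCT(-).

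In the other direction, Zm00001d003380 (chromosome 2, 42239268 to 42240320) had 5, 15 and 10 counts in ZmCCT(+) and 853, 973 and 1059 in ZmCCT(-), a log2 fold change of -6.40 ± 0.13 SE (edgeR adjusted p = 4.60e-55). Zm00001d021447 (chromosome 7, 152381542 to 152384274) had 12, 20 and 15 counts in ZmCCT(+) and 1399, 1388 and 1389 in ZmCCT(-), with -6.29 ± 0.10 SE (edgeR adjusted p = 9.85e-62). These 4 genes were chosen for a wide difference without overlap between genotypes, and CPM did not overlap for 81% of all tested genes. At the later stages both lower genes were well expressed in both genotypes. Zm00001d003380 averaged 30.9 CPM in ZmCCT(+) and 47.4 CPM in ZmCCT(-) at S5-6, and 33.8 and 43.8 CPM at S7. Zm00001d021447 averaged 109 CPM in ZmCCT(+) and 91.8 CPM in ZmCCT(-) at S5-6, and 94.1 and 90.3 CPM at S7.

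**Figure D4:**
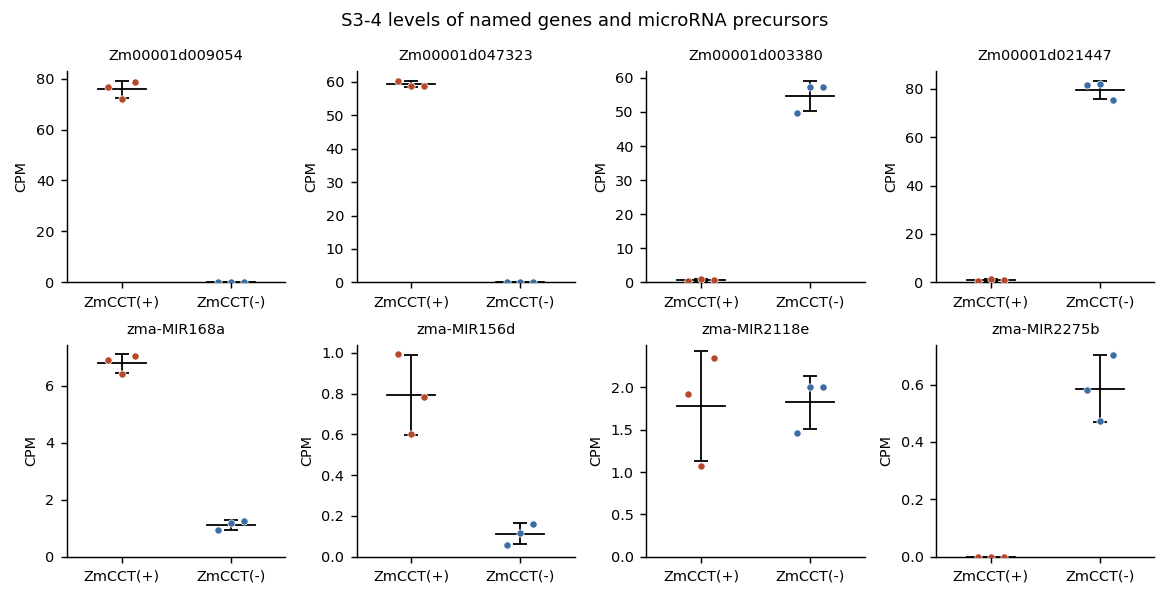
CPM in the S3-4 libraries (vertical axes, each from 0) of 4 genes with the widest differences and 4 microRNA precursors, with 1 point per library and the mean and SD of 3 as lines. Zm00001d009054 and Zm00001d047323 are at 0 in ZmCCT(-), zma-MIR2275b is at 0 in ZmCCT(+), and the ranges of zma-MIR2118e overlap.

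A wider set of genes was detected in 1 genotype alone. With at least 10 counts in each library of a genotype and at most 3 in all libraries of the other, 208 genes were on in ZmCCT(+) alone and 62 in ZmCCT(-) alone. The ZmCCT(+) genes were mostly weak, with a median of 1.86 CPM, and 82 of them had no count in ZmCCT(-). At S5-6, 22 of the 208 were on in ZmCCT(+) and 91 had at most 3 counts, and in ZmCCT(-) 5 were on. At S7, 47 were on in ZmCCT(+) and 7 in ZmCCT(-). Of the 208, 20 had at most 3 counts in every later group, so they were on in S3-4 ZmCCT(+) and near or at 0 in the 5 other groups. A further 16, on 7 chromosomes and including Zm00001d009054 and Zm00001d047323, were on in S3-4 and S7 ZmCCT(+) and had at most 3 counts in each of the 4 other groups. The 62 genes on in ZmCCT(-) alone behaved in another way: 44 of them were on in S5-6 ZmCCT(+) and 40 in S5-6 ZmCCT(-), 36 in S7 ZmCCT(+) and 42 in S7 ZmCCT(-).

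Of the 208 genes, 8 were on in ZmCCT(+) and at most at 3 counts in ZmCCT(-) at all 3 stages. Of these, 7 lie together on chromosome 2 (124419556 to 126280335), where they are all genes with at least 10 counts in each library of an S3-4 genotype. Their summed counts were 1496, 1503 and 1555 in S3-4 ZmCCT(+), against 0, 0 and 0 in S3-4 ZmCCT(-). The 7 genes averaged 2.997 to 39.6 CPM each in ZmCCT(+). They were chosen by their S3-4 counts, so these values are a description. Zm00001d004640, at 2.997 CPM, did not pass the edgeR test at S3-4 (adjusted p = 0.125). Of the 20 tested genes around the stretch, 10 on each side, 7 rose and 1 fell by 2-fold or more, with a median log2 fold change of 0.35. Over all tested genes 19.3% were at least 2-fold higher and 20.9% lower, and the flanking genes were not tested against those shares.

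A stretch of chromosome 3 showed a partial loss. At S7, 14 consecutive tested genes between 228815712 and 229578470 had 8 counts together in the 3 ZmCCT(+) libraries, while each had at least 10 in every ZmCCT(-) library. The bounds of the stretch were set from the S7 libraries, but its S3-4 values had been seen by then, so they are given as a description. At S3-4 all 14 genes had a lower fitted level in ZmCCT(+), 12 of them by 2-fold or more. Their log2 fold changes ran from -4.40 to -0.79 with a median of -1.61. Their summed level was 157, 157 and 157 CPM in ZmCCT(+), against 521, 525 and 528 CPM in ZmCCT(-), or 29.9% of the ZmCCT(-) mean. The loss was uneven, with single genes at 4.70% to 57.7% of their ZmCCT(-) level. At S5-6 none of the 14 differed by 2-fold, and the sum was 528 ± 3.49 CPM in ZmCCT(+) and 515 ± 8.30 CPM in ZmCCT(-) (SD, n = 3 each). The 20 tested genes around the stretch had a median log2 fold change of -0.01 at S3-4, with 1 at least 2-fold lower and 3 higher. The shares over all tested genes were 20.9% lower and 19.3% higher.

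**Figure D5:**
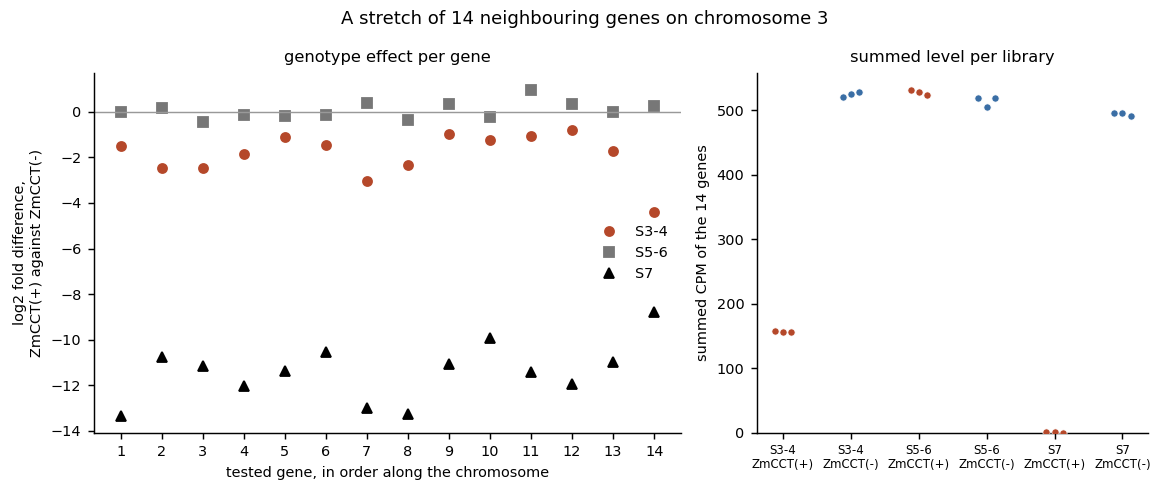
Left, log2 fold difference between ZmCCT(+) and ZmCCT(-) at 3 stages for 14 consecutive tested genes of chromosome 3, where S7 values rest on almost no ZmCCT(+) counts and depend on the prior count. Right, their summed CPM per library in 6 groups: S3-4 ZmCCT(+) lies at 157, S7 ZmCCT(+) near 0 and the other groups between 492 and 531.

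No chromosome stood far from the others. The share of tested genes at least 2-fold higher ran from 18.6% to 21.0% over the 10 chromosomes, and the share lower from 19.4% to 22.8%. Runs of 6 or more consecutive tested genes that were all at least 2-fold changed the same way numbered 4 higher and 4 lower, and 1 of the lower runs is the first 8 genes of the chromosome 3 stretch. A higher run on chromosome 2 (122073292 to 124626984) ends with Zm00001d004635 and Zm00001d004639, the first genes of the chromosome 2 stretch. Of 24684 pairs of neighbouring tested genes, 4.85% were both higher, 5.06% both lower and 7.08% changed in opposite directions. The products of the overall shares are 3.73%, 4.36% and 8.06%, so neighbours changed alike somewhat more often than those products, a difference that was not tested. The longest run held 9 higher genes on chromosome 2 (171336206 to 172201842), whose summed level was 882, 916 and 883 CPM in ZmCCT(+), against 255, 254 and 246 CPM in ZmCCT(-). The most compact run held 6 higher genes on chromosome 4 (169986068 to 170039992), which are all genes listed in that interval. They summed to 813, 873 and 842 CPM in ZmCCT(+), against 178, 174 and 177 CPM in ZmCCT(-), but 1 gene, at 763 CPM in ZmCCT(+) and 157 CPM in ZmCCT(-), made up most of that sum. The remaining 5 genes had 0.491 to 58.1 CPM in ZmCCT(+). On chromosome 7 (11179367 to 11774574) 6 lower genes summed to 354, 394 and 369 CPM in ZmCCT(+), against 1595, 1603 and 1534 CPM in ZmCCT(-), of which 1 gene held 273 CPM in ZmCCT(+) and 1299 CPM in ZmCCT(-). The runs were picked from the S3-4 values and are given as a description.

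The libraries were made from mRNA, so counts of microRNA genes are those of precursor transcripts and not of mature microRNAs. Of 154 listed precursors, 26 had a count at S3-4, 21 in ZmCCT(+) and 19 in ZmCCT(-). They summed to 600 counts in ZmCCT(+) and 294 in ZmCCT(-), of which zma-MIR168a alone held 317 and 59. Enough counts over the series to be tested were found for 7 precursors.

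A precursor of miR168, a microRNA that targets ARGONAUTE1 transcripts, rose in ZmCCT(+). zma-MIR168a (chromosome 5, 76534928 to 76535031) had 104, 96 and 117 counts in ZmCCT(+) and 16, 20 and 23 in ZmCCT(-), a log2 fold change of 2.59 ± 0.21 SE (edgeR adjusted p = 1.14e-19). This level of 6.78 ± 0.34 CPM (SD, n = 3) in S3-4 ZmCCT(+) was the highest of the 6 group means. The nearest was 5.21 ± 1.02 CPM in S7 ZmCCT(+). Its copy zma-MIR168b, which overlaps another listed gene and did not pass the filter, had 6, 12 and 14 counts in ZmCCT(+) and 5, 1 and 0 in ZmCCT(-). With no filter, edgeR gave it a log2 fold change of 2.49 ± 0.70 SE (adjusted p = 0.000772).

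Precursors of microRNAs that act on developmental transcription factors went both ways. zma-MIR156d, of the family that targets SPL factors and marks the juvenile phase, had 15, 9 and 13 counts in ZmCCT(+) and 1, 2 and 3 in ZmCCT(-) (log2 2.73 ± 0.61 SE, edgeR adjusted p = 3.83e-05). It overlaps a non-coding gene on its strand, so its reads may belong to either. zma-MIR156j had 0, 1 and 0 counts in ZmCCT(+) and 5, 8 and 4 in ZmCCT(-) (log2 -3.55 ± 1.06 SE, edgeR adjusted p = 0.00179), and the gene 630 bases away was also lower, with a log2 fold change of -3.03. The single ZmCCT(+) count decides the size: without ZmCCT(+) replicate 2 the log2 fold change of zma-MIR156j was -5.62 (edgeR adjusted p = 0.00138). zma-MIR166a, whose microRNA targets HD-ZIP III factors, had 9, 15 and 11 counts in ZmCCT(+) and 2, 0 and 6 in ZmCCT(-). It did not pass the filter, and with none edgeR gave 2.25 ± 0.68 SE on the log2 scale (adjusted p = 0.00200). zma-MIR319c, of the family that targets TCP factors, had 2, 2 and 3 counts in ZmCCT(+) and none in ZmCCT(-), at least 2.63-fold higher with an adjusted p of 0.0208 in the same unfiltered edgeR fit. It overlaps another listed gene, to which its reads may belong.

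Precursors of the phased small RNA triggers had few counts. zma-MIR2275b (chromosome 4, 31734063 to 31734144) had no count in ZmCCT(+), against 10, 8 and 13 in ZmCCT(-). This is at least 9.12-fold lower against a floor of 3 counts (edgeR adjusted p = 5.29e-07). zma-MIR2275c had none in ZmCCT(+), against 2, 2 and 2 (edgeR adjusted p = 0.00768). zma-MIR2275a, 35 bases from zma-MIR2275b, had none in ZmCCT(+), against 1, 0 and 1, so no family member was detected in S3-4 ZmCCT(+) at this depth, where 3 counts correspond to 0.0642 CPM. Both tested members were detected in ZmCCT(+) at S5-6, zma-MIR2275b at 0.657 ± 0.322 CPM in ZmCCT(+) and 0.768 ± 0.0218 CPM in ZmCCT(-) (SD, n = 3 each). zma-MIR2275c was lower in ZmCCT(+) at the later stages too, at 3.24 ± 0.215 CPM in ZmCCT(+) and 20.2 ± 2.24 CPM in ZmCCT(-) at S5-6 (SD, n = 3 each), with a log2 fold change of -2.64 (edgeR adjusted p = 4.47e-34). At S7 it had 0.457 CPM in ZmCCT(+) and 22.2 CPM in ZmCCT(-) (log2 -5.56, edgeR adjusted p = 5.53e-44). For the miR2118 family no difference passed at S3-4, and the 2 families were not tested against each other. zma-MIR2118e had 29, 16 and 39 counts in ZmCCT(+) and 25, 34 and 37 in ZmCCT(-) (log2 -0.03 ± 0.29 SE, edgeR adjusted p = 0.938). Its sign turned without ZmCCT(+) replicate 2 or without ZmCCT(-) replicate 2 or 3. zma-MIR2118c had 13, 13 and 11 counts in ZmCCT(+) and 13, 5 and 6 in ZmCCT(-) (log2 0.79 ± 0.46 SE, edgeR adjusted p = 0.108). Without ZmCCT(-) replicate 1 its log2 fold change was 1.33 (edgeR adjusted p = 0.0273). The untested members zma-MIR2118a, zma-MIR2118f and zma-MIR2118g had 13, 19 and 3 counts in ZmCCT(+) and 12, 10 and 7 in ZmCCT(-).

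Other non-coding genes, listed under ENSRNA identifiers without a class, held a smaller share of changed genes. Of 1635 listed, 99 were tested, and 11 of them (11.1%) rose and 15 (15.2%) fell by 2-fold or more, against 19.3% and 20.9% of the Zm00001d genes. They are weakly counted, with a median of 0.695 CPM in ZmCCT(+) and 0.651 CPM in ZmCCT(-), and the difference in shares was not tested. All 11 higher genes and 13 of the 15 lower genes were among the 72 tested genes of at most 200 bases. On chromosome 5 (70605204 to 70606157) 4 neighbouring genes on the plus strand had 149, 139 and 171 counts together in ZmCCT(+) and 59, 51 and 80 in ZmCCT(-), and 3 of them were at least 2-fold higher. They lie inside a Zm00001d gene of the same strand, which was higher too, at 82.5 CPM in ZmCCT(+) and 48.0 CPM in ZmCCT(-). On chromosome 6 (92504748 to 92506110) 6 neighbouring genes summed to 13, 22 and 21 counts in ZmCCT(+) and 48, 38 and 47 in ZmCCT(-), and 2 of them were at least 2-fold lower.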

How the data were processed

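The count tables, 1 per stage, were deposited as raw counts per gene. Per-library tables hold TPM, FPKM (not used) and coverage, a signal that the authors deposited without stating how it was computed. Coverage was used to match count columns to samples, and 18 of 18 matched their own best. Bowtie2, StringTie and DESeq2 are named in the submitters' processing notes. Their roles, the strand setting and the handling of reads from near-identical or overlapping genes were not given in the sources used here.

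Counts were filtered with filterByExpr (minimum count 10, total 15) and scaled by TMM in edgeR 4.0.16 (R 4.3.3). TMM factors were 0.845 to 0.854 in S3-4 ZmCCT(+) and 0.961 to 0.962 in S3-4 ZmCCT(-). The quasi-likelihood F test (robust) used 1 fit of all 18 libraries in 6 groups, with 12 residual degrees of freedom, and p-values were adjusted by Benjamini-Hochberg over all genes tested. Errors of log2 fold changes are SE. Floors of 3 counts cover counting error only. Counts of the 6 replicate pairs at S3-4 varied more than counting noise (chi-square per degree of freedom 1.68 to 3.03).

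The members, lists and rules were chosen with earlier results of these data known. Named genes are the tested precursors and, without gene names, the 2 genes furthest up and the 2 furthest down by log2 fold change with an adjusted p below 0.05, at least 20 CPM in the higher group and no overlap. Precursors without enough counts, positions, runs, stretches and most abundant genes were chosen after their values were seen. Of 17 gene lists, markers of other tissues included, 0 had a member paired with an identifier, so none was tested. RefSeq's table of assembly Zm-B73-REFERENCE-NAM-5.0 matched 153 of 154 precursors and 0 of 43789 Zm00001d identifiers. Alternatives were DESeq2 1.42.0, limma 3.58.1 (voom on counts, trend on TPM), other filters, a replicate block, an assumed spread of 20%, the S3-4 libraries alone, a test against 2-fold and leaving out each library.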

Additional observations from a re-analysis of the deposited data

Results flagged for a closer look

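For 8 named genes the genotype effect at S3-4 differed from the mean effect at S5-6 and S7 in a test of that difference, given here on the log2 scale. In edgeR it was -5.91 for Zm00001d003380 (adjusted p = 2.64e-48) and -6.45 for Zm00001d021447 (6.60e-60). It was 2.55 for zma-MIR168a (2.73e-15) and 2.65 for zma-MIR156d (0.00122). For zma-MIR2118c it was 1.47 (0.0229), although its S3-4 effect alone did not pass, and for zma-MIR2275b it was -6.10 (1.10e-05). The edgeR test is not usable for genes without counts in several groups, so limma-voom was used for Zm00001d009054, with 5.87 (adjusted p = 6.20e-09), and Zm00001d047323, with 5.25 (9.01e-08). Both genes were also high in S7 ZmCCT(+). The Zm00001d genes were chosen for a wide S3-4 difference, which is part of this contrast. Their p-values are therefore not independent of that choice and are given as a description.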

How the results depend on the processing

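The counts of genes at least 2-fold higher and lower, 4767 and 5156, were 3428 and 4496 with limma-trend on log2(TPM + 1), 3895 and 4168 when tested against 2-fold, 5419 and 5510 without a filter, and 4533 and 4812 with the S3-4 libraries alone. The last pair shared 4531 and 4786 genes with the first. Without a fold minimum 9973 genes were higher and 10095 lower, and with an assumed spread of 20% and the likelihood ratio test 7097 and 7372. With that setting the contrast of S3-4 with the later stages was called for 12520 genes in place of 19079. TPM moved the median log2 fold change of all genes by -0.09 with a pseudocount of 1 and by -0.12 with 0.1, and 44.2% and 43.9% of calls at any fold were higher, against 49.7% in counts.

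Leaving out each S3-4 library in turn gave 4757 to 4873 genes at least 2-fold higher and 5133 to 5188 lower, 9736 to 9812 higher and 9842 to 9971 lower at any fold, and 18616 to 18806 for the contrast of stages. Replicate numbers did not pair the libraries: same-numbered libraries had deviations correlated at -0.0069, 0.0037 and 0.0085. With the replicate number as a block the counts were 4764 and 5153, 9948 and 10092, and 19067. Of 169 values of named genes under alternatives, 165 kept their direction and call. The log2 fold change of zma-MIR2118e ran from -0.29 to 0.23 with 1 library left out. It turned to 0.041 and 0.043 without ZmCCT(-) replicate 2 or 3 and to 0.23 without ZmCCT(+) replicate 2, and zma-MIR2118c passed in 1 setting. Precursors with few counts are limited by depth.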

Other observations

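TPM and counts disagreed for a small group of genes. At S3-4, 116 genes averaged at least 10 TPM but had under 30 counts in all 6 libraries together, and they took 0.754% to 1.05% of the TPM of a library. A gene on chromosome 1 (225974745 to 225976171) that overlaps another listed gene averaged 1755 TPM in ZmCCT(+) and 3074 TPM in ZmCCT(-), rank 5 there, with 3 counts in each genotype. Such genes are absent from the tests on counts.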
